A study of Mus musculus with 5 samples.

Results

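Fibroblasts have no single defining gene and are recognised by combinations of surface and identity markers. Here 10 such mouse genes were followed through a chemical conversion of embryonic fibroblasts: Pdgfra, Pdgfrb, Thy1, Dpt, Cd34, Fap, Tcf21, Ly6a, Mme and Cd44. The rule is this list of names and uses no measured level, but the list was chosen with earlier results of these data known. All 10 were found among the 27729 genes in the deposited tables. Of these genes, 13346 reached 10 expected counts in at least 1 library and were kept for comparisons of changes, among them 9 of the 10 members. Expected counts are the estimated numbers of reads that RSEM assigns to a gene, which need not be whole.

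Fibroblasts lay down and remodel the collagen-rich matrix of connective tissue. Receptors for platelet-derived growth factor (PDGF) mark the mesenchymal lineage, and Cd34, Ly6a (Sca-1) and Dpt are high in the quiescent fibroblasts and progenitors around vessels and fascia of adult tissue. Several of these proteins are shared with other lineages: Cd34 with endothelium and blood progenitors, Thy1 with T cells and neurons, Pdgfrb with pericytes, and Cd44 with leukocytes.

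Total RNA was sequenced from mouse embryonic fibroblasts (MEFs) of the ICR strain before the change of medium (day 0, growth medium with 10% serum) and on days 2, 5, 10 and 14 of the serum-free conversion medium, with 1 library per time point. According to the study's methods the MEFs came from embryos without head and internal organs, were thawed and passaged, and were enriched for strongly attached cells by a short trypsin step. All 5 libraries share this history. The labels name the medium 6C and the paper 5C, the label of the last library gives day 14 where the treatment text gives day 15, and the labels give 5000 cells per well, a smaller number than the paper's methods state. With only 1 library a day, no difference between days has a replicate check, no test was possible, and the intervals given are exact 95% intervals of the counts, which leave out the spread between cultures and between preparations of RNA. The libraries held 2253748 (day 2) to 3890334 (day 0) expected counts. The day 2 library stood apart, with 4.79% of its counts in Gm42418, a gene that overlaps ribosomal RNA sequence, against 0.0484% to 0.109% in the others, and 14.2% in its 10 most abundant genes, against 6.30% to 8.57%. Normalized counts are expected counts divided by effective library sizes (TMM), and a change is the log2 of a gene's normalized count plus a pseudocount of 1, minus the same on day 0. Of all kept genes, 15.2%, 20.2%, 28.7% and 24.5% were over 2-fold higher in normalized counts on days 2, 5, 10 and 14. The shares over 2-fold lower were 13.1%, 13.6%, 22.3% and 19.9%, and the counts in every gene list stand beside these shares. Levels of different genes are compared only as TPM, which is divided by gene length. In these bulk samples, fewer cells of a type and less RNA per cell cannot be told apart.

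The fibroblast genes did not move as a block. Dpt, Ly6a, Cd34, Pdgfra and Mme were 5.41-fold to 61.7-fold higher in normalized counts on day 14 than on day 0, and each of them was more than 2-fold higher on at least 3 of the 4 days. Pdgfrb, Thy1 and Cd44 were lower on day 14, with normalized counts at 0.603, 0.383 and 0.426 of their day 0 level, though Pdgfrb was higher in TPM by 0.15 on the log2 scale. Fap stayed low at 13 to 55 expected counts, and Tcf21 was at 5 or fewer expected counts in every library.

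**Figure D1:**
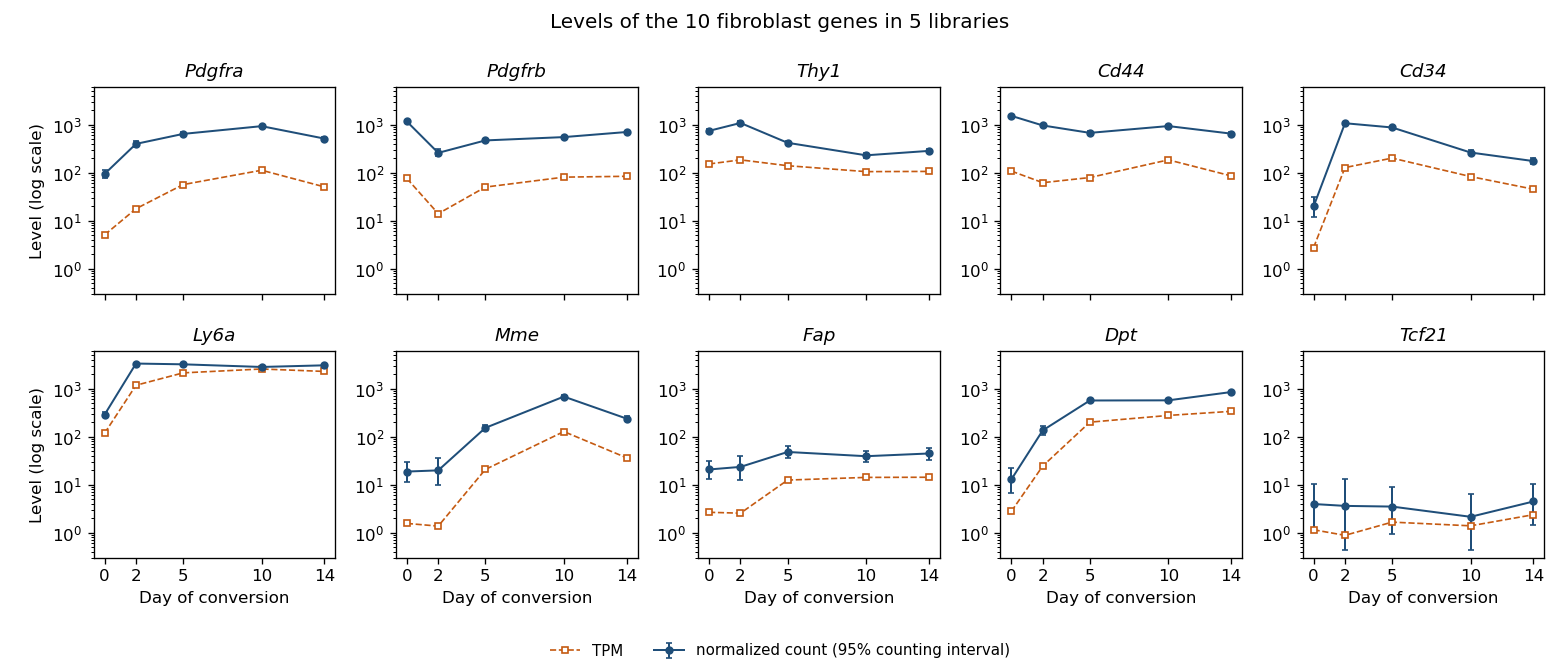
Levels of the 10 genes against the day of conversion, 1 library per point, on a log axis: filled circles are normalized counts with 95% counting intervals, open squares are TPM. Dpt, Cd34, Ly6a, Pdgfra and Mme climb from their day 0 level with different timing, Pdgfrb dips on day 2, and the Tcf21 intervals overlap on all days.

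The receptors Pdgfra and Pdgfrb bind overlapping sets of PDGF ligands and are both tyrosine kinases. Pdgfra (chromosome 5, 75152292 to 75198215, plus strand, GRCm38) had normalized counts of 94.0 in the MEFs and 398, 642, 932 and 513 in the later libraries in order of time. It was lowest in the MEFs and highest on day 10, and the day 0 interval (76.1 to 115) lay below those of all later days. Its log2 changes by day 2, by day 10 and by day 14 were 2.07 (1.73 to 2.44), 3.30 (3.01 to 3.63) and 2.44 (2.13 to 2.78), and the step from day 10 to day 14 was −0.86 (−1.01 to −0.72).

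Pdgfrb (chromosome 18, 61045150 to 61085061, plus strand) had normalized counts of 1167, 259, 470, 551 and 703 in the same order. The lowest library was day 2, with a log2 change of −2.17 (−2.43 to −1.92), and the later levels climbed back without reaching that of day 0, with changes of −1.31, −1.08 and −0.73. This dip, the turned receptor ratio on day 2 and the day 2 levels of Cd34 and Ly6a rest on the library with the high share of Gm42418. The part of that share in them was not tested. In TPM the recovery was complete, with 75.8 in the MEFs, 14.0 on day 2 and then 80.6 and 84.0 by days 10 and 14, so that the sign of the change on days 10 and 14 turned to 0.09 and 0.15. The median of all kept genes changed by 1.09 and 0.78 on the TPM scale on these days, and relative to it Pdgfrb was again lower, by −1.005 and −0.64.

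The balance between the receptors does not depend on scaling between libraries. The TPM of Pdgfra was 0.0665 (0.0534 to 0.0820) of that of Pdgfrb on day 0, and 1.27 (1.02 to 1.58), 1.13 (1.01 to 1.26) and 1.39 (1.27 to 1.53) times that of Pdgfrb on days 2, 5 and 10. On day 14 the ratio was 0.602 (0.539 to 0.671). MEFs carried 15.0 times as much Pdgfrb as Pdgfra in TPM, the order was turned from day 2 to day 10, and Pdgfrb led again on day 14. Of the 4 kept genes among the PDGF ligands and Pdgfrl, 0 passed 2-fold on days 2 and 5, 1 was higher and 1 lower on day 10, and 1 was lower on day 14, whereas in TPM 3 were higher and 0 lower on both of the last days, when 52.9% and 41.6% of all kept genes were over 2-fold higher on that scale. Pdgfd, a ligand of the beta receptor, had a log2 change of 1.48 on day 10, Pdgfc one of −1.17 on day 14, and Pdgfa, a ligand of the alpha receptor, one of 0.80 on day 14, when its TPM was 223 against 55.6 on day 0.

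**Figure D2:**
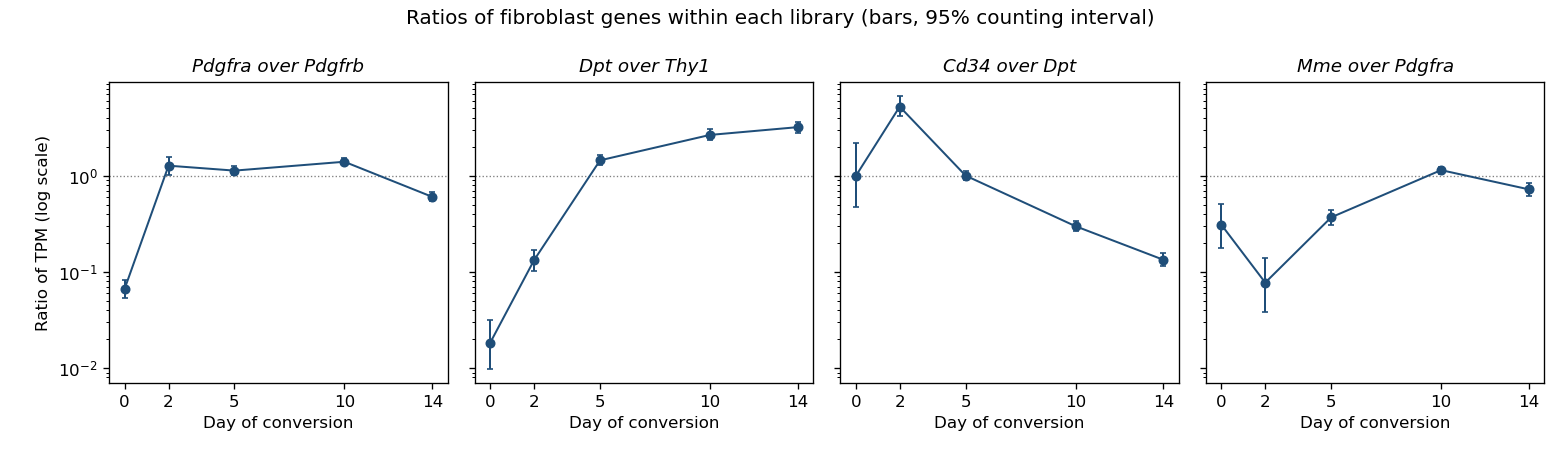
Ratios of the TPM of 4 gene pairs within each library against the day of conversion, on a log axis, with 95% counting intervals; the dotted line marks equal TPM. Pdgfra over Pdgfrb jumps from 0.0665 to 1.27 by day 2, Cd34 over Dpt is highest on day 2 at 5.21 and then declines, and Mme over Pdgfra is lowest on day 2.

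Thy1 and Cd44 are surface markers widely used for cultured fibroblasts. Thy1, a small anchored glycoprotein (chromosome 9, 44043384 to 44048579, plus strand), had normalized counts of 744, 1086, 419, 230 and 284. Its highest library was day 2 and its lowest day 10, and its log2 changes were 0.54 (0.39 to 0.70), −0.83, −1.69 (−1.89 to −1.50) and −1.39. In TPM its levels ran from 105 to 185 and the changes on days 5, 10 and 14 shrank to −0.12, −0.53 and −0.51. Relative to the TPM median of all kept genes they were −0.73, −1.62 and −1.30, close to the changes in normalized counts.

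Cd44, the hyaluronan receptor (chromosome 2, 102811141 to 102901665, minus strand), had normalized counts of 1528, 964, 675, 936 and 651. Day 0 was the highest library on this scale, and days 5 and 14 were the lowest, at −1.18 (−1.30 to −1.05) and −1.23 (−1.36 to −1.10) relative to it. On day 10 the change was −0.71 in normalized counts, 0.77 in TPM and −0.32 in TPM relative to the median of all kept genes. The mean transcript length that RSEM gave for Cd44 was 4006 bases on day 10 and 4559 to 4975 bases on the other days. A shorter length raises TPM for the same count, so the day 10 value of Cd44 in TPM includes this shift. Among 12 kept genes of hyaluronan synthesis, breakdown and binding, 0, 2, 4 and 2 were over 2-fold higher and 4, 2, 1 and 4 lower on the 4 later days, with medians of −0.82, 0.30, 0.73 and 0.09. In TPM 0, 6, 8 and 6 were higher and 4, 0, 0 and 0 lower, where 7.9%, 32%, 52.9% and 41.6% of all kept genes were higher. Has2, the main hyaluronan synthase of mesenchyme, had 71 expected counts in the MEFs, 2 on day 2 and 520 on day 10, with log2 changes of −3.94 and 2.38. Hyal1, a hyaluronidase, and Cemip2, a surface hyaluronidase, had changes of 2.97 and 2.57 on day 10.

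Cd34, a sialomucin of progenitor cells (chromosome 1, 194938819 to 194961279, plus strand), shared with Thy1 and Ly6a its highest normalized count on day 2, and was highest on day 5 in TPM. It had 20, 593, 1000, 368 and 194.9 expected counts and normalized counts of 19.8, 1073, 875, 263 and 174. All later libraries lay above day 0, by 5.69 (5.12 to 6.48) on the log2 scale on day 2 and by 3.08 (2.47 to 3.88) on day 14. From day 5 to day 10 the level dropped by a log2 step of −1.73 (−1.91 to −1.56), and TPM gave the same order of days 5, 10 and 14, with 201, 83.0 and 45.2. Between days 2 and 5 the scales differed, with a step of −0.29 in normalized counts and 0.65 in TPM. Its relative Podxl2 had changes of 1.11, 1.55, 1.91 and 1.67, and the other relative, Podxl, reached only 12 expected counts.

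Ly6a, the stem cell antigen Sca-1 (chromosome 15, 74994877 to 74998031, minus strand), was the most abundant member from day 2 on. Its normalized counts were 289, 3356, 3234, 2849 and 3083, and on this scale the 4 later libraries lay within 1.18-fold of each other. In TPM the level went on from 1183 on day 2 to 2145, 2584 and 2299, a further log2 step of 0.86 from day 2 to day 5, and the changes relative to genes of like length were 3.42, 4.06, 4.45 and 4.19. The log2 changes were 3.53 (3.36 to 3.72), 3.48, 3.30 and 3.41. Its expected counts are not whole numbers, because RSEM divides reads that also match other genes, such as near-identical Ly6 genes, so its level is uncertain to that extent. Of 7 kept Ly6 family relatives, 3, 5, 5 and 5 were over 2-fold higher on the 4 days and 2, 1, 1 and 1 lower, with medians of 0.74, 1.84, 1.88 and 2.49. The shares of all kept genes were 15.2%, 20.2%, 28.7% and 24.5% higher and 13.1%, 13.6%, 22.3% and 19.9% lower. Ly6c1, a close relative of Ly6a and an endothelial and monocyte antigen, had changes of 3.86, 5.28, 4.90 and 4.43, and Ly6h, a neural member of the family, had 2.06 to 5.34. Plaur, the urokinase receptor, was lower on every day, with changes of −3.93 to −1.89.

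Mme and Fap are surface peptidases. Mme (neprilysin, CD10), which degrades small peptides (chromosome 3, 63241537 to 63386030, plus strand), had 19, 11, 175, 962 and 267 expected counts. Its normalized counts of 18.8 and 19.9 on days 0 and 2 had overlapping intervals, and the level then reached 153 by day 5, 687 by day 10 and 239 at the end. The step from day 10 to day 14 was −1.52 (−1.73 to −1.33), and this decline had the same sign in TPM, from 128 to 36.4. Its change on day 2 was not detectable at this depth (0.08, interval −1.14 to 1.23).

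Fap (fibroblast activation protein; chromosome 2, 62500943 to 62574075, minus strand) had 21, 13, 55, 55 and 50.1 expected counts. The log2 changes in normalized counts were 0.17 (−0.94 to 1.24), 1.17 (0.46 to 2.01), 0.89 (0.17 to 1.72) and 1.07 (0.34 to 1.91), so that the day 5, 10 and 14 levels lay on both sides of 2-fold with wide intervals. In TPM these changes were larger, 1.88, 2.05 and 2.06, and relative to the median of all kept genes they were 1.27, 0.96 and 1.28. Its mean transcript length differed between libraries, from 2751 bases on day 0 to 2026 bases on day 14. Of 13 kept relatives among membrane and prolyl peptidases, 3, 5, 7 and 4 were over 2-fold higher and 3, 1, 1 and 1 lower, with medians of 0.02, 0.34, 1.02 and 0.49. The shares of all kept genes were 15.2%, 20.2%, 28.7% and 24.5% higher and 13.1%, 13.6%, 22.3% and 19.9% lower. In TPM 1, 6, 9 and 7 of the 13 were higher and 3, 0, 1 and 1 lower, where 7.9%, 32%, 52.9% and 41.6% of all kept genes were higher. Ace, the angiotensin-converting enzyme, had 4 expected counts on day 0 and 490 to 622 from day 5 on, with a change of 6.69 on day 14. Enpep, an aminopeptidase of angiotensin, and Ecel1, a relative of neprilysin in the nervous system, had changes of 5.77 on day 10 and 4.32 on day 14.

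Dpt, dermatopontin, a small matrix protein that binds collagen and decorin (chromosome 1, 164796644 to 164824266, plus strand), showed the largest difference between its lowest and highest library among the members, 66.4-fold in normalized counts. It had 13, 75, 651, 804 and 956 expected counts, or 12.9, 136, 570, 574 and 855 after normalization. The level was higher in each later library, except that days 5 and 10 did not differ beyond counting error (log2 step 0.01, interval −0.14 to 0.16). The log2 changes were 3.30 (2.54 to 4.37), 5.36, 5.37 and 5.95 (5.27 to 6.97). The ratio of Dpt to Thy1 in TPM was 0.0183 (0.00972 to 0.0315) in the MEFs and 3.19 (2.81 to 3.63) on day 14. That of Cd34 to Dpt passed from 5.21 (4.12 to 6.76) by day 2 to 0.134 (0.114 to 0.156) by day 14.

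Other genes that fibroblasts of most tissues express gave a mixed picture around Dpt. Of the 24 in that list, 11, 10, 10 and 10 were over 2-fold higher on days 2, 5, 10 and 14 and 4, 2, 4 and 3 lower, with median log2 changes of 0.61, 0.20, 0.28 and 0.74. In TPM 8, 12, 14 and 17 were higher and 4, 2, 2 and 2 lower, where 7.9%, 32%, 52.9% and 41.6% of all kept genes were higher. Lum, a keratan sulphate proteoglycan of collagen fibrils, had changes of 4.19, 4.85, 5.47 and 5.91, and Col15a1, a collagen near basement membranes, had 1.21, 3.30, 5.59 and 6.01. Penk, which encodes proenkephalin, went from 25 expected counts in the MEFs to 1738 on day 5.

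Tcf21, a basic helix-loop-helix factor of visceral and cardiac mesenchyme (chromosome 10, 22817281 to 22820174, minus strand), had 4, 2, 4, 3 and 5 expected counts. With so few reads the interval of its log2 change ran from −2.04 to 2.51 on day 14, and no difference was detectable at this depth. Among 22 kept transcription factors of mesenchyme, 4, 5, 6 and 6 were over 2-fold higher and 4, 4, 8 and 7 lower, with medians of −0.27, 0.11, −0.32 and −0.27. In TPM 2, 7, 9 and 6 were higher and 3, 1, 4 and 4 lower. The TPM medians on days 10 and 14 were 0.69 and 0.48, below the 1.09 and 0.78 of all kept genes. On that scale 7.9%, 32%, 52.9% and 41.6% of all kept genes were over 2-fold higher and 14%, 3.98%, 6.77% and 6.97% lower. Osr2, an odd-skipped factor, was higher with changes of 2.98, 3.53, 3.32 and 3.32. Pitx1, a hindlimb factor, and Twist2, a dermal factor, were lower, with −3.27 and −2.71 on day 14.

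The upstream sequences of Dpt, Cd34 and Mme are shown because these genes had the largest changes of the 10, 5.69 for Cd34 on day 2, 5.12 for Mme on day 10 and 5.95 for Dpt on day 14. A RefSeq table on GRCm38.p6 held upstream windows for 6 of the 10 members (Pdgfra, Dpt, Cd34, Tcf21, Mme and Cd44), 8 windows in all since Mme has 3 starts. Each sequence is the 250 bases before a transcription start, read 5′ to 3′ on the gene's strand, and capitals mark a match to TTCNNNGAA, the palindromic motif of STAT factors, which are activated by leukemia inhibitory factor, a component of the conversion medium.
Dpt (chr1:164796413-164796662, plus strand): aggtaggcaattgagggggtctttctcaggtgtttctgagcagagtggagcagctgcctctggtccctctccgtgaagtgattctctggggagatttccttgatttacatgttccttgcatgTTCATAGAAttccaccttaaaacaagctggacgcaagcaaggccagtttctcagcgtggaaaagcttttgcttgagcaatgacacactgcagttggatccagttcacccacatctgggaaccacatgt
Cd34 (chr1:194938571-194938820, plus strand): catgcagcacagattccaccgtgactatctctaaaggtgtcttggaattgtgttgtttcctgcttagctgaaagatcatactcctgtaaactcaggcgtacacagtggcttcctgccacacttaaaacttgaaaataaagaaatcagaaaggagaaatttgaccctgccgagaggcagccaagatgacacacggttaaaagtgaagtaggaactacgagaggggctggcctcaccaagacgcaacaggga
Mme, first start in the table (chr3:63294961-63295210, plus strand): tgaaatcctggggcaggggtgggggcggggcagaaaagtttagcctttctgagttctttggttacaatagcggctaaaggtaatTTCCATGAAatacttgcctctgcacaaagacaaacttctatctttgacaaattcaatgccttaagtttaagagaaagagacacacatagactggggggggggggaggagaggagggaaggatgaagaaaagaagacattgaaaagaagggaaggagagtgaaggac

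The STAT motif stood once in the Dpt window, 128 bases before the start, once in this Mme window, 166 bases before the start, and in none of the other 6 windows. The same motif was in 7.02% of the 32851 mouse windows of this length in the table. Both strands were searched for 6 further motifs. TATAAA was in no window of the members and in 12.4% of all windows, GGGCGG was in all 3 Mme windows and in 32.7% of all, and CCAAT was in the other two Mme windows and in 33.8% of all. TGANTCA was in 1 Mme window against 6.75% of all, GGAATG in 1 Mme window against 12.6%, and CANNTG 6 times in the Dpt window and 1 time in the Pdgfra window, against 66.2% of all windows with at least 1. The Cd34, Cd44 and Tcf21 windows held none of the 7 motifs. The motifs were chosen with the members' changes known, and a match is a run of letters, not a bound site.

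Over the 9 kept members, 4 were over 2-fold higher and 1 lower on day 2, when 15.2% of all 13346 kept genes were higher and 13.1% lower. On day 5 there were 6 higher and 2 lower members, against 20.2% and 13.6% of all kept genes. On day 10 there were 5 higher and 2 lower members, against 28.7% and 22.3%, and on day 14 there were 6 higher and 2 lower members, against 24.5% and 19.9%. The members' median log2 change was 0.54, 2.76, 3.30 and 2.44 on the 4 days, where that of all kept genes was −0.03, 0.05, 0.14 and 0.07. Because the members were chosen with earlier results of these data known, this comparison is descriptive only. With TPM no member was over 2-fold lower on day 5, 10 or 14, and 4, 6, 6 and 6 members were over 2-fold higher on the 4 days, with 1 lower on day 2. On this scale 7.9%, 32%, 52.9% and 41.6% of all kept genes were over 2-fold higher and 14%, 3.98%, 6.77% and 6.97% lower, and their median log2 changes were −0.20, 0.61, 1.09 and 0.78. The normalized changes moved with gene length: of 5 equal groups of genes ordered by length, the shortest had a median of −1.15 on day 10 and the longest 0.92. Relative to the median of its own length group, the day 10 change was 4.45 for Ly6a, which is in the shortest group, and 2.37, −2.00, 4.19 and −1.63 for Pdgfra, Pdgfrb, Mme and Cd44, which are in the longest. None of the 9 kept members changed sign on any day under this correction, and 3 instead of 2 were over 2-fold lower on days 10 and 14, since Pdgfrb, Thy1 and Cd44 then all passed.

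**Figure D3:**
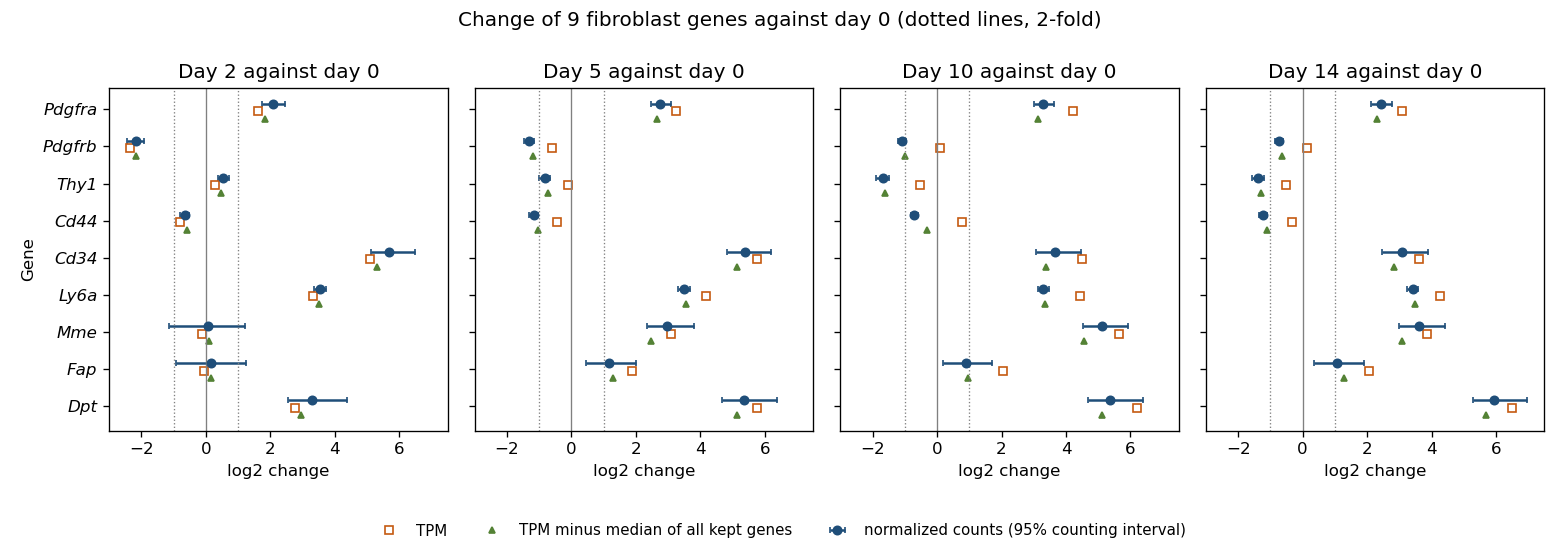
Log2 change against day 0 of the 9 kept genes in 4 panels, one for each later day: filled circles with bars are normalized counts with 95% counting intervals, open squares TPM, and triangles TPM minus the median of all kept genes. The open squares of Pdgfrb and Cd44 lie right of 0 on day 10, at 0.09 and 0.77, while their circles and triangles lie left of 0.

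The members also differed in when they were highest. In normalized counts Pdgfrb and Cd44 were highest on day 0, Thy1, Cd34 and Ly6a on day 2, Fap on day 5, Pdgfra and Mme on day 10, and Dpt on day 14. In TPM no kept member was highest on day 0, and 4 (Pdgfra, Ly6a, Mme and Cd44) were highest on day 10, the day on which 50.4% of all kept genes had their highest TPM. Thy1 on day 2, Pdgfra and Mme on day 10 and Dpt on day 14 were the members with the same highest day on both scales.

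Within a library, the order of the TPM levels is free of the scaling between days. In the MEFs Thy1 led with 152 TPM, followed by Ly6a with 118, Cd44 with 108, Pdgfrb with 75.8 and Pdgfra with 5.04, and the other 5 lay between 1.15 and 2.78. Ly6a and Cd44 did not differ beyond counting error (ratio 1.10, 0.947 to 1.22), nor did the neighbours from Dpt down to Tcf21. On day 2 Ly6a led with 1183 TPM, 6.40 times (5.70 to 6.87) the level of Thy1, and Cd34 had moved up to the third place with 128. On day 5 Dpt and Cd34 followed Ly6a and were level with each other (ratio 1.00, 0.903 to 1.10).

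On day 10 Mme, which had ranked 9 of 10 on days 0 and 2, ranked 4 with 128 TPM, 1.14 times (1.05 to 1.24) the level of Pdgfra. On day 14 the order ran from Ly6a (2299), Dpt (338), Thy1 (106), Cd44 (85.6), Pdgfrb (84.0), Pdgfra (50.5), Cd34 (45.2), Mme (36.4) and Fap (14.3) to Tcf21 (2.37). The pairs Cd44 and Pdgfrb, and Pdgfra and Cd34, did not differ beyond counting error there. The summed TPM of the 10 genes was 470, 1619, 2907, 3572 and 3062, of which Ly6a alone held 25.2% on day 0 and 72.4% to 75.1% later. Without Ly6a the sum was 351, 435, 763, 988 and 763, so the higher total in TPM rested mostly on 1 gene. On days 5, 10 and 14 the median of all kept genes was itself higher in TPM, by 0.61, 1.09 and 0.78 on the log2 scale. In normalized counts, which are not divided by gene length, the sum of the 10 genes was 3898, 7318, 7090, 7062 and 6551, highest on day 2. Ly6a held 7.40% of the members' expected counts on day 0 and 40.3% to 47.1% later.

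The gene lists for states of fibroblasts did not share one direction with the members. Of 10 genes of activated, contractile fibroblasts, 7, 6, 6 and 7 were over 2-fold lower and 0, 0, 2 and 2 higher, with medians of −1.94, −2.56, −2.90 and −2.997. Acta2, smooth muscle actin, went from 32380 expected counts in the MEFs to 159 on day 14, Tagln, an actin-binding protein, from 16343 to 202, and Cnn1, a calponin, from 361 to 3. In TPM 0, 2, 3 and 3 of the 10 genes were higher and 8, 5, 5 and 6 lower. Their summed TPM was 11760 on day 0 and 1533, 1419, 2461 and 3760 later. Acta2 and Tagln held 6362 and 3610 TPM of it on day 0, and 51.65 and 73.79 TPM on day 14. The sum on day 14 thus rested mostly on other genes of the list, and the named genes do not stand for all 10. Of 14 genes of adventitial progenitors, which in adult tissue are positive for Ly6a and Cd34, 2, 4, 5 and 3 were over 2-fold higher and 3, 5, 4 and 3 lower, with medians of −0.57, −0.17, −0.20 and −0.03. In TPM the last 3 were 0.40, 0.93 and 0.69, each below the median of all kept genes (0.61, 1.09 and 0.78). Cd55, a complement inhibitor, was higher with 2.45 on day 10, while Anxa3, an annexin, and Limch1, an actomyosin regulator, were lower with −4.90 and −3.79 on day 14. Of 12 kept genes of the mesenchymal stromal surface panel, 2, 4, 3 and 5 were over 2-fold higher and 2, 1, 2 and 2 lower, with medians of −0.33, 0.36, 0.23 and 0.18. In TPM 0, 5, 7 and 6 were higher and 3, 1, 0 and 1 lower, with medians of −0.58, 0.83, 1.37 and 1.05. On that scale all kept genes had medians of −0.20, 0.61, 1.09 and 0.78, and 7.9%, 32%, 52.9% and 41.6% of them were higher. Ngfr, the low-affinity neurotrophin receptor, which also marks Schwann cells, had a change of 6.82 on day 14, Mcam one of 3.08, and Cspg4, the proteoglycan NG2, one of −3.26.

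Markers of other cell types moved over the same days, and their part in the members' levels was not tested. Beside the counts in these lists stand shares of 15.2%, 20.2%, 28.7% and 24.5% of all kept genes over 2-fold higher. The shares over 2-fold lower were 13.1%, 13.6%, 22.3% and 19.9%. Blood and macrophage markers had a summed TPM of 59.0, 442, 1595, 1230 and 740, and of 11 kept genes 11, 10, 8 and 8 were over 2-fold higher and 0, 1, 1 and 1 lower. Ptprc, the common leukocyte antigen, and Cd5l, a macrophage protein, had no counts on day 0, and Lyz2, a lysozyme of macrophages, had 30.3 TPM on day 0 and 1252 on day 5. This sum was highest on day 5, as was Cd34 in TPM, and Cd34, Cd44, Ly6a and Mme are expressed by blood cells too. Lymphocyte markers stayed at 1.32 to 5.86 summed TPM, with Cd3e and Cd3g at 0 in all 5 libraries and 1 of 6 genes kept. Endothelial markers summed to 24.1 TPM on day 0 and 14.9, 13.6, 6.18 and 3.76 later. Only 4 of 10 genes were kept, with 2, 1, 1 and 0 over 2-fold higher and 1, 1, 2 and 2 lower. Their median log2 changes were 1.11, −0.04, −1.56 and −1.52. Kdr, a receptor of endothelial growth factor, had 238 expected counts in the MEFs and 2 to 9 later. It held 14.0 TPM of the sum on day 0 and 0.18 on day 2. Cldn5 was at 0 throughout. Cd34, which endothelium also carries, was higher on all 4 days than on day 0, and the part of endothelial cells in its level was not tested.

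Schwann and neural crest markers had a summed TPM of 13.3, 20.4, 237, 2139 and 2370, with 5, 9, 10 and 10 of 10 genes over 2-fold higher and none lower. Sox10, the factor of the glial lineage, had 7 expected counts in the MEFs and 2230 by day 14, and Cdh19, a cadherin, had 4 and 1295. Neuron markers summed to 131, 150, 246, 514 and 1229 TPM, with 3, 5, 5 and 5 of 7 kept genes higher and 1, 2, 2 and 2 lower, and Rbfox3 at 0 in all libraries. Gap43, a growth cone protein, was higher with 4.41 on day 14, Tubb3, a neuronal tubulin, had 2.81, and Stmn2, a stathmin, had −1.45. Gap43 held 28.2 TPM of the sum on day 0 and 1101 TPM on day 14, so the higher sum rested mostly on this gene. Thy1, which neurons carry as well, was higher on day 2 and lower on days 5, 10 and 14 in normalized counts.

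Pericyte and smooth muscle markers, the cells that also carry Pdgfrb, summed to 10118 TPM on day 0 and 569 to 1271 later, with 1, 2, 2 and 1 of 8 kept genes over 2-fold higher and 4, 5, 6 and 6 lower. Acta2 and Tagln stand in this list too and held 6362 and 3610 TPM on day 0, so the drop of the sum rested mostly on these genes. Mcam, also in the list, had 27.2 TPM on day 0 and 417 on day 14. Myh11, smooth muscle myosin, had 187 expected counts in the MEFs and 6 by day 14. Mesothelial markers summed to 176 TPM on day 0 and 44.2 on day 14, with 1, 2, 2 and 2 of 5 genes higher and 2, 1, 2 and 2 lower. Krt19, a keratin, had a change of −6.57 on day 14 and Msln, mesothelin, one of −2.86, while Upk3b, a uroplakin, had 2.34 on day 10. Epithelial markers lay between 7.11 and 67.9 summed TPM, with 2, 1, 0 and 0 of 3 kept genes higher and 0, 1, 2 and 3 lower, and Krt18, another keratin, had 162 expected counts by day 2 and 5 by day 14. Skeletal muscle markers summed to 146 TPM on day 0 and 1.81 to 12.2 later, both kept genes were over 2-fold lower on every day in normalized counts and 1 of them in TPM, and Acta1, skeletal actin, had 585 expected counts in the MEFs and 3.15 by day 10.

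**Figure D4:**
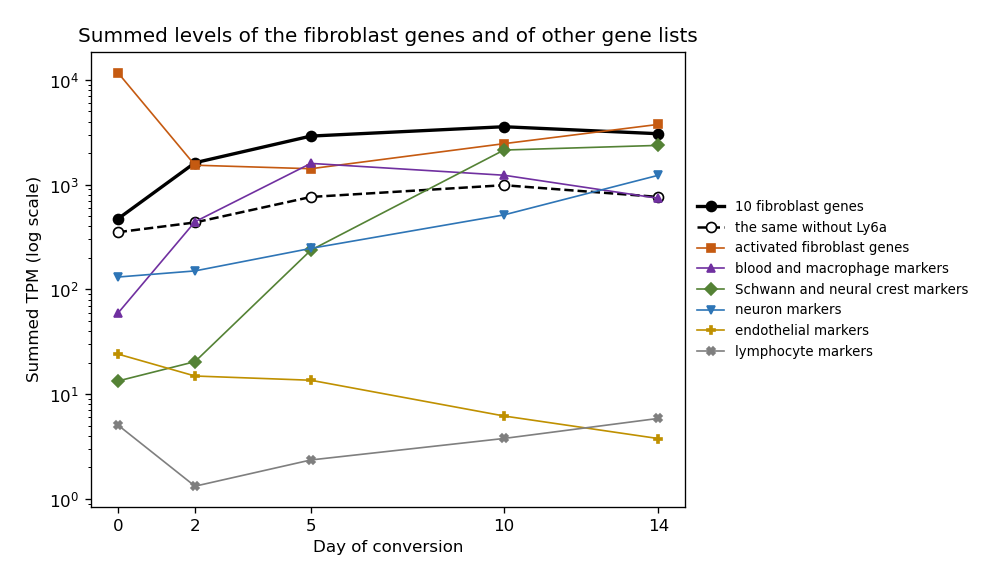
Summed TPM of the 10 fibroblast genes, with and without Ly6a, and of 6 other gene lists against the day of conversion, 1 library per point, on a log axis. In TPM the fibroblast genes climb from 470 to 3572 by day 10, when the median of all kept genes is itself 1.09 higher on the log2 scale. Blood and macrophage markers peak on day 5 at 1595. Activated fibroblast genes, mostly Acta2 and Tagln on day 0, drop from 11760 to 1533 by day 2. They stand at 3760 on day 14, mostly from other genes of the list. The neuron sum on day 14 is mostly Gap43.

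The genes whose log2 changes over days 2, 5, 10 and 14 were closest to each member were sought among the 8256 genes that reached 100 expected counts in at least 1 library, by the root mean square difference over these 4 days. Cd44 had the closest partner, Fam177a at 0.046. Counting error was left out of these differences. Fam177a reached only 126 expected counts, and the counting interval of the Cd44 change on day 14 alone ran from −1.36 to −1.10. Thy1 was close to Ift22, a protein of intraflagellar transport, at 0.071 and to Ubl5, a ubiquitin-like protein, at 0.083. Pdgfrb had Cd109, an anchored surface protein, at 0.16 and Pgrmc1 at 0.28, and Pdgfra had Synm, an intermediate filament protein, at 0.18 and Ephb6, an ephrin receptor, at 0.21. Ly6a was nearest to Bcl3, a partner of NF-κB, at 0.23 and to Osr2 at 0.28, and Mme to Ahr, the aryl hydrocarbon receptor, at 0.26 and Grik3, a kainate receptor subunit, at 0.30. Dpt had more distant partners, Slc40a1, the iron exporter ferroportin, at 0.42 and Ptgfr, a prostaglandin receptor, at 0.47. Cd34 had none within 0.77, the difference to Ms4a7, a gene of macrophages, with Prl2c2, a prolactin relative, at 0.78. By this measure Cd34 and its nearest genes shared a pattern less closely than the other 7 members did with theirs, but Cd34 had only 20 expected counts on day 0.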

How the data were processed

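RNA of MEFs was measured in 1 library per time point (days 0 to 14), grouped by the labels. The authors deposited expected counts per gene (RSEM, unscaled) and TPM values, which are scaled to 1e+06 per library. Their processing notes name Bowtie, RSEM and mm10; versions, the annotation release and any filter are not given in the sources used here. Deposited gene lengths are RSEM's and weight isoforms by abundance. FPKM values were not used.

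Gene identifiers were matched to GENCODE M21 (27247 of 27729; the other 482 held 0.359% of counts). TMM factors (0.808 to 1.19) came from edgeR 4.0.16 in R 4.3.3 on rounded counts of all genes. Genes that reached 10 expected counts in at least 1 library were kept, with a pseudocount of 1 and a 2-fold threshold. Intervals are 95% Clopper-Pearson intervals, which leave out the pseudocount. A gene at 3 counts made up 0.771 to 1.33 per 1e+06 counts of a library.

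The 10 members, the gene lists and the motifs were chosen with earlier results of these data known. All members are described; from each list, the 3 genes with the largest absolute change among those that reached 100 expected counts in at least 1 library are named, and for each member with as many counts the 2 closest genes; 2 genes that this rule names are not reported here. Genes named as absent, and Podxl and Rbfox3, were chosen after their values were seen. Computations were tested on simulated counts. Alternatives were DESeq2 1.42.0 size factors, total counts, TPM, a pseudocount of 5, other filters, a 4-fold threshold and length correction. Scripts ran in Python 3.11.15 (pandas 2.3.3, numpy 2.4.6, matplotlib 3.10.9, scipy 1.17.1).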

Additional observations from a re-analysis of the deposited data

How the results depend on the processing

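The numbers of members over 2-fold higher stayed within 1.5-fold of the reported ones under all alternatives run. The numbers of lower members on days 5, 10 and 14 were 0, 1 and 1 with total counts in place of TMM, 0, 0 and 0 with TPM, and 0, 0 and 0 with a 4-fold threshold, against 2, 2 and 2 as reported, and 2, 3 and 3 with length correction. Pdgfrb on day 10 had a log2 change of 0.0882 with TPM, the one value past 2-fold that changed sign; 4 smaller changes also changed sign with TPM (Mme and Fap on day 2, Cd44 on day 10, Pdgfrb on day 14) and 1 with total counts (Mme on day 2). The median of all kept genes moved with these scales, to 1.09 with TPM and 0.60 with total counts on day 10; the cause was not tested. With TPM relative to that median, an alternative added after seeing the data, 0 of 36 changes turned sign and 34 lay within the counting interval. TMM had already put the median of all kept genes at −0.03 to 0.14. Subtracting the TPM median largely repeats that centring, so it is not an independent check. With TMM factors computed without the day 2 library, also added later, all 27 changes lay within it. DESeq2 size factors, a pseudocount of 5 and 10 or more counts in every library gave 36 of 36 within it, but total counts and length correction each gave 21 of 36 and TPM 14 of 36. No library could be left out of a time point, since each has 1. No paired analysis was possible because there is 1 library per time point. Depth limits Tcf21, Fap, and the day 0 levels of Dpt, Cd34 and Mme.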
